A study of Mus musculus with 2 samples.

Results

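The NF-κB family was examined here in mouse splenic antigen-presenting cells (APCs), as 10 named genes: the Rel subunits Nfkb1, Nfkb2, Rel, Rela and Relb, and the IκB proteins Nfkbia, Nfkbib, Nfkbie, Nfkbiz and Bcl3. Members were all probe sets whose single gene symbol in the platform annotation was one of these names. This gave 18 probe sets of 9 genes, out of 45037 probe sets and 18193 genes. Nfkb1 has no probe set of that name in the annotation used and was not analysed here. The donors of the spleens were C57BL/6 mice, female and 10 weeks old, and the APCs spent the night in culture with CD4+ T cells bearing the P25 T cell receptor. One culture received P25, a mycobacterial peptide that this receptor recognises, and the other received medium; T cells were present in both. After enrichment of the APCs, total RNA from 3 separate experiments was pooled, and each condition was hybridised once. There is therefore no replicate spread and no p-value, and every value below is a description of these 2 arrays.

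NF-κB is a family of dimeric transcription factors that act early after engagement of antigen receptors, CD40, TNF receptors and Toll-like receptors. In resting cells IκB proteins hold the dimers in the cytoplasm. In the canonical route the IκB kinase complex marks IκB for destruction and frees dimers with RelA or c-Rel, whereas in the non-canonical route the kinase NIK drives the processing of p100, the product of Nfkb2, to p52, the partner of RelB. Several genes of the family, among them Nfkbia and Nfkb2, are themselves transcribed under NF-κB and so form feedback loops. In B cells and dendritic cells the family governs maturation and survival.

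The sequences just upstream of 4 members are shown because several hold the kind of element that NF-κB binds, in genes that belong to its own circuit. RefSeq promoter windows (GRCm38.p6) matched 7 of the 10 members, with 9 windows in all. The 250 bases before each transcript start were searched on both strands for the κB consensus, a 10-base motif, in its form with 3 pyrimidines before the closing cytosines, whose matches are in capitals (those on the opposite strand are printed as they read on the gene's strand). The windows lie at chr12:55492648-55492897 on the minus strand for Nfkbia, chr19:46304487-46304736 on the plus strand for Nfkb2, chr11:23770970-23771219 on the minus strand for Rel and chr17:45555450-45555699 on the plus strand for Nfkbie, all printed 5′ to 3′ on the gene's strand.
Nfkbia: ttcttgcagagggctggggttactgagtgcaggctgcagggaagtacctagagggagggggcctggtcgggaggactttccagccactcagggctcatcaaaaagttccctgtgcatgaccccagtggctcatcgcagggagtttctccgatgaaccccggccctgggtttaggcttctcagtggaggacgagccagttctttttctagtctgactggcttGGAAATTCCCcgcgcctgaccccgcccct
Nfkb2: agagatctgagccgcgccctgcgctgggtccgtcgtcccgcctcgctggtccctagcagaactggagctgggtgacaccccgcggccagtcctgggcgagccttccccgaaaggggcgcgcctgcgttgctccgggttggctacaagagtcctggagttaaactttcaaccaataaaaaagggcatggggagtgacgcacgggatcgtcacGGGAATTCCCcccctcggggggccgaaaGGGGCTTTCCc
Rel: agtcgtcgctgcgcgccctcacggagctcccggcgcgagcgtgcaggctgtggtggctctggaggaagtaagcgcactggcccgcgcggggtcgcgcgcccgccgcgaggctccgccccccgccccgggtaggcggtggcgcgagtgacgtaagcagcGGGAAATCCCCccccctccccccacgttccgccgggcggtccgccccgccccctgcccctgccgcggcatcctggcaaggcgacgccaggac
Nfkbie: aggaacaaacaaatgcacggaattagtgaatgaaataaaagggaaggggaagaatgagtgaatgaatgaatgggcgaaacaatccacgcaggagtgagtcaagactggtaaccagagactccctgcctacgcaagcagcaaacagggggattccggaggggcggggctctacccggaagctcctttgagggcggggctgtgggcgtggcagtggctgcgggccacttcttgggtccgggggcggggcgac

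The Nfkbia window held 1 match, 29 to 20 bases before the start. The Nfkb2 window held matches at 2 positions, 39 to 30 and 11 to 2 bases before the start, and the first, a palindrome, matched on both strands. The Rel window held 2 matches that overlap by all but 1 base, 92 to 82 bases before the start. A further Nfkb2 window, at chr19:46305680-46305929, held GGGACTTTCC at 225 to 216 bases before its start. No match to this form lay in the windows of Nfkbie, Nfkbib, Bcl3 and Rela or in the remaining Nfkb2 window, so 4 of 9 windows and 3 of 7 genes had a match. Over all RefSeq promoters 5% of 32851 windows and 5.67% of 27025 genes had one. The other common form of the consensus, with A or T before 2 pyrimidines, overlaps the first and was searched after the data were seen. It matched in the same 4 windows, in the Nfkbie window at 106 to 97 bases before the start (on the gene's strand) and in the remaining Nfkb2 window at 236 to 227 bases. With it 6 of 9 windows and 4 of 7 genes had a match, against 3.9% of all windows and 4.46% of all genes. A match is a description of letters and shows no binding.

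With P25, Nfkbie and Nfkb2 were at least 2-fold higher, 5 other genes had log2 ratios above 0 and Rela and Relb had log2 ratios slightly below 0. None of the 9 measured members was at least 2-fold lower. Thus 2 of 9 genes were at least 2-fold higher, against 9.43% of 12897 measured genes, and 0 of 9 at least 2-fold lower, against 7.22%. All members' main probe sets had signals above 100 on both arrays, and among the 6404 genes that bright 9.46% passed 2-fold upward and 5.32% downward. With so few members, 2 genes past 2-fold are not set apart from that background. At a 1.5-fold threshold 5 of 9 members were higher, against 20.9% of measured genes (21.6% of bright genes), and none was lower, against 18.3% of measured genes. The median log2 ratio of the members was 0.63 (1.55-fold), beside 0.02 over all measured genes.

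Where a gene had several probe sets, the brightest on average stands for it, and a ratio is the P25 signal over the medium signal of the same probe set. Signals are in the arbitrary units of the array and are not compared between genes. As a gauge of technical disagreement, the log2 ratios of the brightest pair of probe sets of a gene differed with an SD of 0.58 over 5293 genes, and of 0.44 over the 2317 genes whose second probe set had signals of 100 or more. This gauge covers neither the cultures nor the mixing of RNA.

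**Figure D1:**
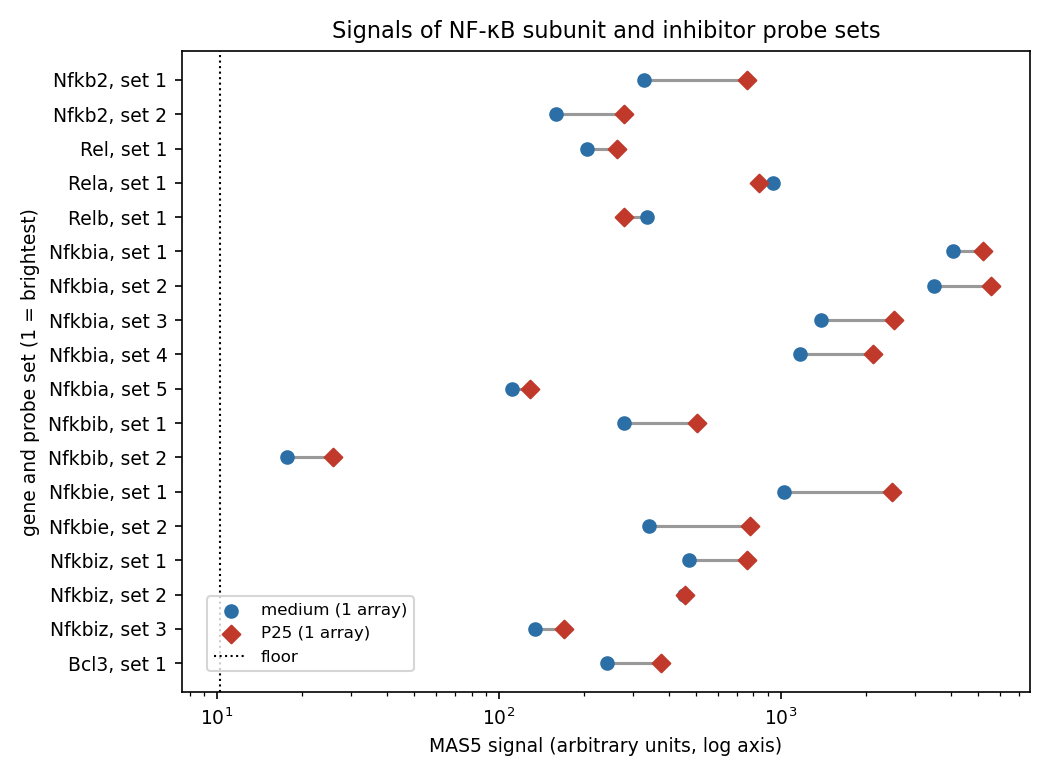
MAS5 signal of each of the 18 member probe sets (log axis) on the medium array (blue circles) and the P25 array (red diamonds), joined by a line, with the floor as a dotted line. P25 was the higher array in 16 of the 18 probe sets, and the exceptions were the single probe sets of Rela and Relb. The 18 probe sets cover 9 genes, with 5 from Nfkbia and 3 from Nfkbiz, so they are not separate observations. Over all measured genes 51.4% had log2 ratios above 0, and the share over all probe sets was not taken.

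Among the Rel subunits, Nfkb2 had the largest ratio. Nfkb2 encodes p100, which both restrains RelB as an IκB-like protein and yields p52. Its signal was 759 with P25 and 328 with medium, a 2.31-fold difference (log2 ratio 1.21). P25 was also the higher array on its second probe set, at 278 against 159, but the ratio there was 1.74-fold and below 2-fold. Of all measured genes, 6.24% had a higher ratio than the main probe set of Nfkb2.

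The other 3 measured subunits had log2 ratios between -0.27 and 0.35. Rel encodes c-Rel, a subunit used strongly by lymphocytes, and its signal was 261 with P25 and 205 with medium (log2 ratio 0.35). Rela encodes p65, the transactivating subunit of the classical dimer, and its signal was 838 with P25 and 940 with medium (log2 ratio -0.17). Relb, whose product pairs with p52, had 279 with P25 and 336 with medium (log2 ratio -0.27). On the deposited scale these 3 log2 ratios were each smaller in size than 0.44, the SD between probe sets. So was that of the main probe set of Nfkbia, an IκB gene (0.36). Rel, Rela and Relb each rest on a single probe set. With both arrays brought to a common median, or a common spike-in level, the log2 ratio of Rel came to 0.50 and 0.52. With the arrays scaled to the spike-in controls the log2 ratio of Rela came to 0.00086, so the arrays give it no direction. Nfkb2 and Relb, whose products work together in the non-canonical route, thus had log2 ratios of 1.21 and -0.27. The median log2 ratio over the 4 measured subunits was 0.09, with 2 of 4 above 0.

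All 5 IκB genes among the members had log2 ratios above 0, against 51.4% of measured genes. Each did so on every one of its probe sets, though 1 probe set of Nfkbiz was level (0.01, 457 against 454). Nfkbid, an IκB gene outside the members, had -0.05. The median log2 ratio of the 5 was 0.69 (1.61-fold). Of these, 1 was at least 2-fold higher (9.43% of measured genes) and 4 at least 1.5-fold (20.9% of measured genes). The difference between the medians of IκB genes and Rel subunits was not tested, and the ranges of both groups overlap through Nfkb2.

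Nfkbie encodes IκBε, a cytoplasmic inhibitor that holds c-Rel and RelA dimers. Its signal was 2489 with P25 and 1025 with medium, or 2.43-fold higher (log2 ratio 1.28). Its second probe set gave 779 against 341, or 2.29-fold. Nfkbie was the only member at least 2-fold higher on every probe set, and 5.58% of measured genes had a higher ratio. Its upstream window had a match to the second form of the κB consensus and none to the first.

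Nfkbia encodes IκBα, the inhibitor that is destroyed and remade most rapidly, and was covered by 5 probe sets. The brightest had a signal of 5235 with P25 and 4085 with medium (1.28-fold). The second, nearly as bright, gave 5578 against 3481 (1.60-fold). The next probe sets gave 2514 against 1394 (1.80-fold) and 2123 against 1168 (1.82-fold). The dimmest gave 129 against 111 (1.16-fold). All 5 were higher with P25 and none reached 2-fold, and their log2 ratios spanned 0.65, from 0.22 to 0.86 with a median of 0.68. The value used for counts, 0.36, is thus among the lower ones for this gene. Whether the brightest probe set still follows a difference in full was not tested.

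Nfkbib encodes IκBβ, a cytoplasmic inhibitor with slower turnover than IκBα. Its signal was 506 with P25 and 279 with medium (1.82-fold, log2 ratio 0.86). The second probe set was dim, with 25.8 against 17.8 (1.45-fold). With both arrays brought to a common median, or a common spike-in level, the main probe set passed 2-fold (log2 ratios of 1.01 and 1.03).

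Nfkbiz and Bcl3 encode nuclear IκB proteins, which work on bound dimers of p50 or p52 and can raise transcription of chosen targets. The brightest probe set of Nfkbiz had a signal of 760 with P25 and 473 with medium (1.61-fold). Its other probe sets gave 457 against 454 (1.01-fold) and 171 against 135 (1.27-fold), so the size of the difference in this gene depends on the probe set. Bcl3 had 375 with P25 and 242 with medium (1.55-fold) on its single probe set.

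**Figure D2:**
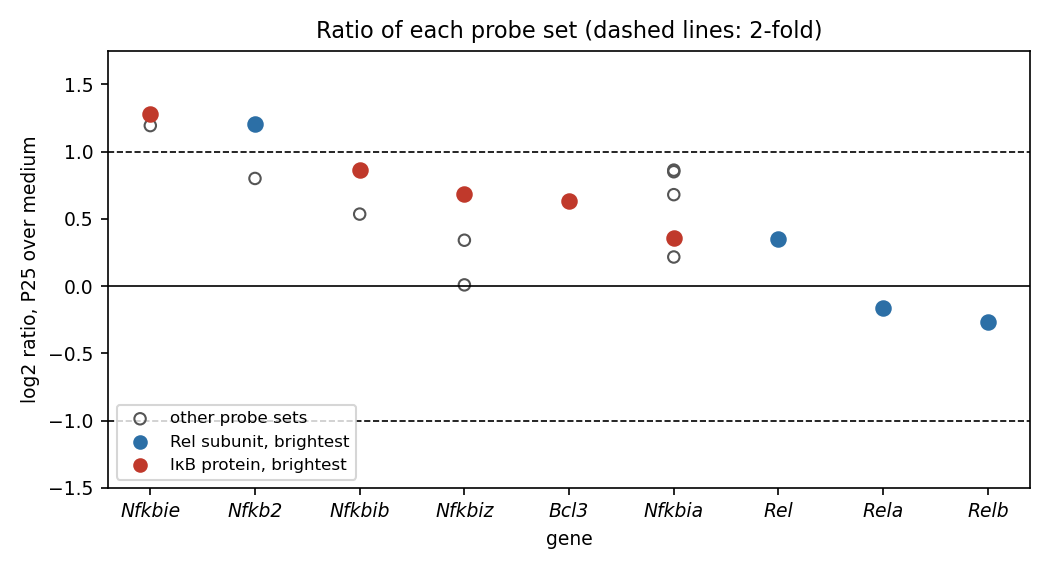
Log2 ratio of P25 over medium for each probe set of the 9 measured members, with the brightest probe set filled (blue for Rel subunits, red for IκB proteins), the others open, and 2-fold as dashed lines. Nfkbie lay above 2-fold on both probe sets, Nfkb2 on the brightest alone, and the probe sets of Nfkbia and Nfkbiz spanned 0.65 and 0.68.

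Both scalings that bring the arrays to a common level move all genes upward. The median log2 ratio of all measured genes went from 0.02 to 0.15 with a common median and to 0.17 with a common spike-in level, and the share of 2-fold calls that were higher went from 56.6% to 71.0% and 72.7%. Under these scalings 3 of 9 members were at least 2-fold higher, against 12.4% and 12.9% of all measured genes. The median of the members went to 0.78 and 0.80. These scalings multiply each array by a single factor, so every ratio above the floor shifts by the same amount. The distance between the member median and the median of all genes was thus nearly fixed in advance.

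**Figure D3:**
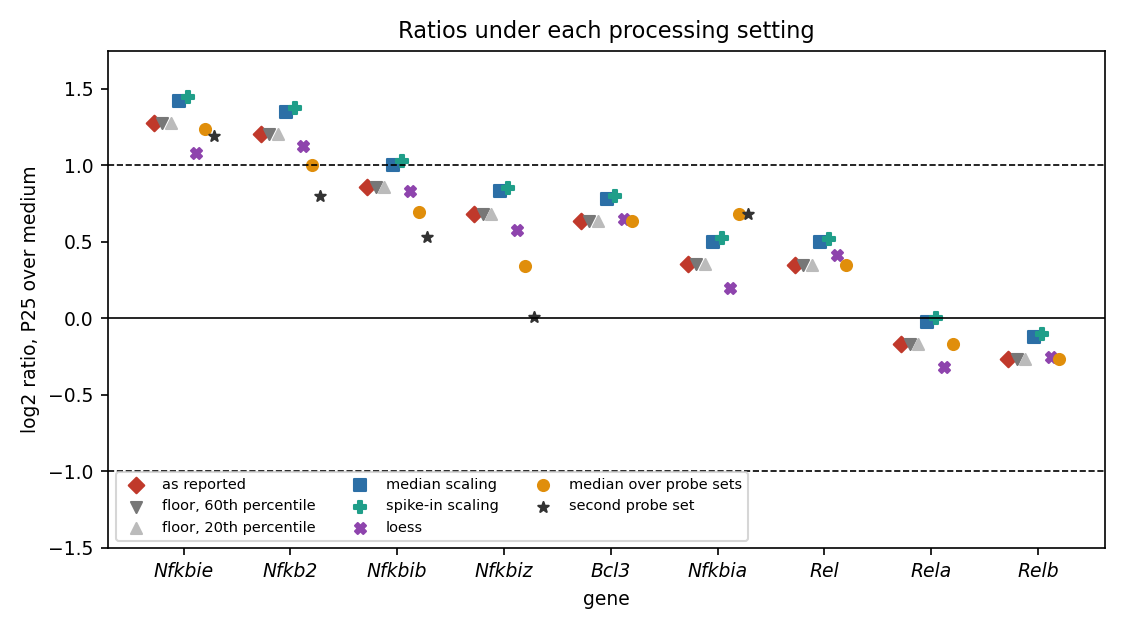
Log2 ratio of P25 over medium for each member under the reported setting and 7 alternatives, with 2-fold as dashed lines. Nfkbie stayed above 2-fold in all of them (1.08 to 1.45), Nfkb2 in all but the second probe set (0.80), and Relb stayed between -0.27 and -0.10. The floors could not move these ratios, because every main probe set had signals above them.

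Of 11 measured kinases that carry signals to NF-κB, 9 had log2 ratios below 0, against 48.6% of measured genes. With spike-in scaling 7 did, but there the median of all measured genes was 0.17. The share of all genes below 0 was not taken under that scaling. The median of the kinases was -0.50 (-0.33 with spike-in scaling). In each direction 1 of them passed 2-fold, which is near the shares of 9.43% higher and 7.22% lower over all measured genes. Ikbke, an IκB kinase-related enzyme that also acts in interferon induction, was the highest at 145 against 55.5 (2.61-fold higher). Map3k14, which encodes NIK, was the lowest at 98.9 against 229 (2.32-fold lower), and its other probe set gave -0.51 on the log2 scale. Ikbkb, the catalytic subunit that marks IκB in the canonical route, had 797 against 1388 (log2 ratio -0.80), and its 5 probe sets ran from -1.01 to 0.70.

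Of 14 measured receptor adaptors and ubiquitin ligases, 1 passed 2-fold upward and none downward, near the shares of 9.43% and 7.22% over all measured genes. Their median log2 ratio was -0.07, and median or spike-in scaling turned it to 0.08 or 0.10. The higher gene was Traf1, an adaptor of TNF receptors, at 500 against 241 (2.08-fold), and its other probe set had a log2 ratio of 2.16. The lowest was Traf6, a ubiquitin ligase downstream of CD40 and Toll-like receptors (log2 ratio -0.53), whose measured probe sets ran up to 0.58. Birc3, an inhibitor of NIK, had 2266 against 2357.

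Of 16 measured negative regulators, 2 passed 2-fold in each direction, which is not set apart from 9.43% higher and 7.22% lower over all measured genes. The median log2 ratio was -0.04 (0.10 and 0.12 with median and spike-in scaling). Tnfaip3 encodes A20, an enzyme that edits ubiquitin to end NF-κB signalling, and had 973 against 342 (2.84-fold higher, with a log2 ratio of 1.41 on its second probe set). Usp18, an interferon-induced protease, was 4.63-fold higher. Nlrc3 was 4.81-fold lower, at 27.8 against 134. Irak3, a brake on Toll-like receptor signalling, was 2.15-fold lower but within 2-fold with median and spike-in scaling and loess.

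Among 10 measured genes of further IκB proteins and cofactors, 1 passed 2-fold in each direction, near the 9.43% and 7.22% of all measured genes. The median log2 ratio was -0.13 (0.01 and 0.04 with median and spike-in scaling). Nkrf, a repressor of NF-κB target genes, was 2.30-fold higher, and Ep300, an acetyltransferase coactivator, was 2.40-fold lower. Nfkbid, the remaining nuclear IκB protein, had 824 against 854 (log2 ratio -0.05, and 0.09 and 0.11 with median and spike-in scaling), where Nfkbiz and Bcl3 had 0.69 and 0.63.

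Genes commonly described as NF-κB targets were mostly higher. This list was chosen with earlier results of these data known, so its counts are a description and no independent test. Of 47 measured, 23 passed 2-fold upward and 1 downward, against 9.43% and 7.22% of all measured genes, and 39 had a log2 ratio above 0. The median log2 ratio was 0.88, the bound of Il1a, and 0.85 over the 45 genes that neither array had at the floor. The 6 highest were Cxcl10, Ccl22, Ccnd2, Fas, Irf1 and Ptgs2, with log2 ratios of 4.87, 4.15, 3.26, 2.77, 2.66 and at least 2.51. Ptgs2 was below the floor with medium, gave -0.04 on its second probe set, and came to 0.60 with the floor at the 60th percentile. At that higher floor Il6, Cxcl2 and Il15 also came within 2-fold (0.86, 0.49 and 0.60), and Ccl17 was no longer measured. The count there was 18 of 42 targets at least 2-fold higher, against 9.89% of all measured genes. The 4 lowest were Ccl5, Ccr7, Fscn1 and Vcam1, with log2 ratios of -2.08, -0.93, -0.75 and -0.46, and of these Ccl5 alone was at least 2-fold lower. The probe sets of Fscn1 ran up to -0.11 and those of Vcam1 up to 0.27. Vcam1 was dim (16.5 against 22.8) and not measured at the higher floor. Many listed targets also respond to interferon. Without 13 such genes, chosen after the values were seen and 12 of them measured, 15 of 35 measured targets passed 2-fold upward and none downward, with a median log2 ratio of 0.83. Of the list, 7 genes also belong to the adaptor, regulator or cofactor lists, and without them 21 of 41 were at least 2-fold higher.

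**Figure D4:**
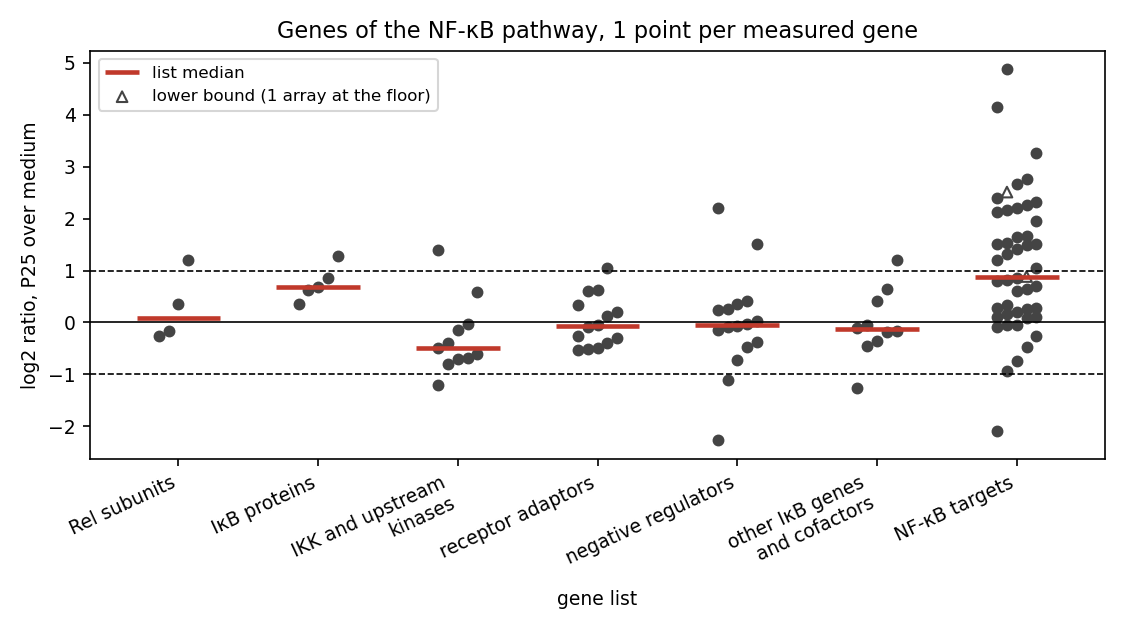
Log2 ratio of P25 over medium for every measured gene of the 2 member groups and 5 pathway lists, with the list median as a red bar, lower bounds as open triangles and 2-fold as dashed lines. The medians of IκB genes (0.69) and targets (0.88) lay above 0, the median of the kinases (-0.50) lay below it, and the others lay between -0.13 and 0.09.

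Cell type markers differed on the same arrays. Over all measured genes 48.6% had log2 ratios below 0, 9.43% were at least 2-fold higher and 7.22% at least 2-fold lower. Marker values are given on the deposited scale only. In bulk RNA, fewer cells of a type and less RNA per cell cannot be told apart. Of 11 B cell markers, 10 had log2 ratios below 0, with a median of -0.63, and 2 were at least 2-fold lower. Their summed signal was 26751 with P25 and 38030 with medium, and all were above the floor. Of 9 measured macrophage and monocyte markers, 8 were below 0, with a median of -1.28, and 7 were at least 2-fold lower. Mertk, C1qb and Ccr2 were at the floor with P25, and without these 3 the median was -1.15. The summed signal over the measured genes was 1388 against 3273, while C1qa, C1qc and Cd163 were below the floor on both arrays. All 9 measured neutrophil markers were below 0 (median -1.10, summed signal 6973 against 12913), and 7 were at least 2-fold lower. Of 9 measured dendritic cell markers 6 were below 0 (median -0.70), 2 passed 2-fold in each direction, and Xcr1 was below the floor. Without Cadm1, at the floor with P25, the median was -0.50. Zbtb46 (5.72-fold) and Ly75 (4.32-fold, 232 against 53.6) were higher, and the summed signal of the 9 was 498 against 449. Of 8 measured T cell markers 6 were below 0 and 3 at least 2-fold lower (median -0.63, summed signal 493 against 1378). Cd3e, Cd3d, Cd4 and Cd6 were below the floor on both arrays. Cd2 made up most of the summed T cell marker signal (339 against 1140), and without it the sums were 154 and 238. Cd3g and Trat1 were on the other side, with log2 ratios of 0.96 and at least 0.41. Of 3 measured natural killer cell markers (summed signal 52.1 against 91.7), Klrd1 had -1.55, Klra8 and Gzma had lower bounds of 0.14 and 0.51, and Ncr1 and Eomes were below the floor. The part of these differences in the ratios of the NF-κB genes was not tested.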

How the data were processed

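The deposited values are MAS5 signal intensities on a linear scale, made by the authors with GCOS and MAS5, per the submitters' processing notes; the sources used here give no version, scaling target or detection call. Groups were taken from the treatment label. After 64 control probe sets were left out, signals below the 40th percentile of both arrays (10.3) were set to that floor, and log2 ratios of P25 over medium were taken. Probe sets exceeding the floor on either array count as measured, and where only 1 array exceeded it the ratio is a bound. Probe sets with 1 gene symbol (34945; 932 had several and 9160 none) were named from the platform annotation, updated by Entrez number through RefSeq (GRCm38.p6). Genes were counted at 2-fold. Median signals were 18.0 (P25) and 18.4 (medium), and 18 hybridization spike-ins had a median log2 ratio of -0.15. The number of arrays limits the precision.

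All 10 members are named, as are the pathway list genes past 2-fold with the highest and lowest of each list, and the 6 highest and 4 lowest targets; a few others were named after their values were seen. Members and lists were chosen with earlier results of these data known. The alternatives were floors at the 60th and 20th percentiles, median, spike-in and loess scaling, other probe sets of a gene and a 1.5-fold threshold. The procedure was run on simulated arrays, with differences planted only in genes above the floor on both arrays. This checked the mean recovery of planted ratios, not the noise of the real arrays or of signals near the floor. Python 3.11.15, pandas 2.3.3 and statsmodels 0.14.6 were used.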

Additional observations from a re-analysis of the deposited data

How the results depend on the processing

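The count of members at least 2-fold lower was 0 in all alternatives run. The floors, at 38.6 or lower, could not change this count or the count higher, because all main probe sets had signals above 100. The count at least 2-fold higher was 2 or 3 of 9 under the scalings and the median over probe sets. It was 1 of 5 with the second brightest probe set and 5 of 9 at 1.5-fold, and 3 of 18 with probe sets counted singly. For the last count the share over all probe sets was not taken. The second brightest probe set, which only 5 members have, gave a Rel subunit median of 0.80 (Nfkb2 alone) and a log2 ratio of 0.01 for Nfkbiz. With it 0 of 7 kinases, 1 of 10 negative regulators, 0 of 4 cofactors and 8 of 19 targets were at least 2-fold higher. Ikbke, Usp18 and Nkrf have no value in that setting, so their calls were not tested by it. Cflar and Sod2, among the 8 targets, were within 2-fold on their main probe sets (0.83 and 0.85). In the other direction 1 of 10 negative regulators and 0 of 4 cofactors were at least 2-fold lower. That regulator was Itch (-1.15), which had -0.72 on its main probe set. Irak3 came to -0.56, and Nlrc3 and Ep300 have no value there. The kinase at least 2-fold lower was Ikbkb (-1.01), while Map3k14 came to -0.51. Over all genes with such a probe set, 9.79% of 5293 were at least 2-fold higher and 7.39% lower. The median over probe sets left 0 kinases and 1 negative regulator at least 2-fold lower. Median scaling, spike-in scaling and loess each left 1 negative regulator at least 2-fold lower, and loess gave 2 targets lower. Without the genes that also respond to interferon, chosen after seeing the data, 15 of 35 targets were at least 2-fold higher. Over all genes, the floor at the 20th percentile gave 2438 genes at least 2-fold higher and 1933 lower, against 1216 and 931. No paired analysis was possible because each condition has 1 array. With 1 array per condition, differences between cultures and between arrays cannot be told apart from the treatment.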
